A study of Mus musculus with 8 samples.

Results

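The nuclear tRNAs for aspartate, histidine, asparagine and tyrosine were followed in mouse primary macrophages deprived of the growth factor M-CSF. Members were all tRNA genes of the deposited feature lists whose name carries Asp, His, Asn or Tyr. There were 51 of them among 3514 features in all, and among 429 nuclear tRNA features. They comprised 16 copies of Asp with anticodon GTC, 14 of Asn with GTT, 10 of His with GTG, 10 of Tyr with GTA and 1 His gene with ATG. The last does not have G as the first anticodon base, so it meets the rule by its amino acid but not the label of GUN anticodons, and it is given apart as HisATG. Of the members, 50 were listed for the Ion Proton run and 51 for the SOLiD run. The exception was chr3.tRNA285-AsnGTT, at 0 to 0.821 reads per 1000000 in the 4 SOLiD libraries.

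Bone marrow-derived macrophages (BMDMs) came from C57BL/6J mice, for which the methods give male animals aged 10 weeks and the labels name no other allele. The cells had grown in medium with L929-cell conditioned medium, a source of M-CSF. Control cells were untreated, and the other cells spent 36 h in M-CSF withdrawal medium, a stimulus that drives these cells into apoptosis. Total RNA of 2 control and 2 deprived cultures, stated as biological replicates, was sequenced on the Ion Proton. The SOLiD run held a pair of libraries, 1 per condition, from total RNA (SOLiD total here) and another pair from RNA selected for a size between 25 and 40 nt (SOLiD small). Whether the cultures came from separate or pooled mice is not given in the sources used here. Each Ion Proton library had 6053130 to 7760142 reads on listed features, and each SOLiD library 4039837 to 12178454. Nuclear tRNAs took 26.7% and 26.6% of them in Ion Proton controls and 47.1% and 44.7% after withdrawal. In the SOLiD pairs their share was 10.2% and 42.2% (total) and 8.81% and 41.4% (small), control first. The RNA integrity number lay between 8.4 and 8.9 for the Ion Proton run, was 8.4 and 7.5 for the SOLiD total pair and 2.7 and 2.6 for the SOLiD small pair. Summed levels of 6 myeloid miRNAs, miR-21a-5p among them, were 68005 and 73997 per 1000000 reads in Ion Proton controls and 51107 and 58108 after withdrawal. In these libraries 13 miRNAs of other cell types summed to 22.8 to 36.7 per 1000000 reads, with the liver miR-122-5p at 0 to 0.165 and the neural miR-124-3p and muscle miR-1a-3p at 0. In the SOLiD libraries the same 13 summed to 3568 to 5776 reads per 1000000 (RPM), led by the erythroid miR-451a at 2394 to 3988 RPM. Of the 13, 11 were detected in each SOLiD library, and only miR-124-3p and miR-1a-3p were at 0. The muscle miR-133a-3p had 207 to 394 RPM and the epithelial miR-200c-3p 572 to 840 RPM. The part of these cells in the results was not tested. The names miR-142a-3p and miR-142a-5p of the myeloid list were not used in the SOLiD run, where the other 4 summed to 384727 and 142967 RPM (total) and 233197 and 95614 RPM (small), control first.

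A tRNA reads codons through its anticodon, whose first base pairs loosely with the last codon base. In the tRNAs for Asp, His, Asn and Tyr this base is encoded as G and is exchanged in mature tRNA for queuosine, a modified base made from queuine, which animals take from food and gut microbes. The queuosine of the Asp and Tyr tRNAs receives a further sugar, the His tRNA receives an extra G at its front end, and the Tyr genes hold an intron that is spliced out. Queuosine is known to shield these tRNAs from cleavage in the anticodon loop. The libraries did not measure modification, and the tables count reads per gene without saying which part of the tRNA a read covered.

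The stretches of sequence at hand show where the anticodon of 2 isotypes lies. They were read on GRCm38 (mm10) from RefSeq sequence around gene starts (Asn, His) and from an exon of the long non-coding RNA Gm11280 in GENCODE (Asp), 5′ to 3′, with the anticodon in capitals. The first is the front 47 of 74 bases of an Asn gene (chr1:171033969-171034015, minus strand), the second the front 62 of 72 bases of a His gene (chr3:96452495-96452556, plus strand) and the third the front 17 of 72 bases of an Asp gene (chr13:21940374-21940390, minus strand), which stop before the anticodon.
chr1.tRNA1014-AsnGTT: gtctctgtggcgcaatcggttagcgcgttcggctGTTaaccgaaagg
chr3.tRNA295-HisGTG: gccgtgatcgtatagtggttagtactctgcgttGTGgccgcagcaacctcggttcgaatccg
chr13.tRNA991-AspGTC: tcctcgttagtatagtg
In the Asn gene the anticodon filled positions 35 to 37 and in the His gene positions 34 to 36, counted from the first base of the gene.

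The genes lay on 10 chromosomes and were 72 bases long for Asp and HisGTG, 74 for Asn, 73 for HisATG and 86 to 93 for Tyr. By coordinates, 50 of 51 matched a RefSeq tRNA gene. Many stood in clusters. The largest, on chromosome 3 from 96322074 to 96500437, held 7 Asn and 6 His copies side by side. A cluster on chromosome 1 (171033942 to 171102442) held 5 Asp copies and 1 Asn copy, and 6 of the 10 Tyr copies lay on chromosome 13 between 23425646 and 23467165. Of the 51 copies, 11 lay within another annotated gene and 2 touched an exon, those of Ndufs7 (chr10.tRNA390-AsnGTT) and of Gm11280 (chr13.tRNA991-AspGTC), whose own reads cannot be told apart from those of the tRNA.

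Copies of 1 isotype can share reads, since each Ion Proton read was reported at up to 10 places. Of the 10 HisGTG copies, 8 on 3 chromosomes had 3715 to 3718 reads in control 1 and 6483 to 6487 in M-CSF withdrawal 1. Of the 16 Asp copies, 9 had 1187 to 1200 reads in control 1 and another 4 had 1433 to 1439. Within each of these groups the counts lay within 5% of each other in every Ion Proton library. The value of a single copy is therefore uncertain, and a sum over copies can count a read several times. Results are given for the sum over the copies of an anticodon and for its most-read copy.

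Reads of the Asp tRNA more than doubled after M-CSF withdrawal, those of His and Asn rose as well (1.95-fold and 1.87-fold by the means), and those of Tyr did not pass the test. Levels are counts per 1000000 listed reads (CPM), copies summed, and the test was the quasi-likelihood test of edgeR, adjusted after Benjamini-Hochberg over 1659 features, copies of all nuclear tRNAs summed by anticodon. Of these 1659, 7.47% were called higher and 5.61% lower at an adjusted p of 0.05 (124 and 93 features, or 105 and 149 with total counts and 129 and 8 with TMM factors over miRNAs). Among the 5 sums of the Asp, His, Asn and Tyr tRNAs, 3 were called higher and 0 lower, the same counts as with DESeq2 and at an unadjusted p of 0.05, and among the 46 sums of other nuclear tRNAs 24 were called higher and 0 lower. The median log2 fold change was 1.10 over the 5 sums, 0.76 over the other 46 and 0.02 over all features. Fewer cells and less RNA per cell cannot be told apart in such bulk samples.

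The Asp tRNA, AspGTC, had 2529 and 2457 CPM in the 2 Ion Proton controls and 5912 and 5632 CPM after M-CSF withdrawal. The means were 2493 ± 51.2 and 5772 ± 198 CPM (SD, n = 2 libraries each), and the groups did not overlap. Both withdrawal libraries were above both controls in CPM for 24.1% of the 1659 features and below them for 32.9%. The log2 fold change was 1.41 ± 0.07 (SE), with an adjusted p of 0.00126 in edgeR.

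HisGTG had 4549 and 5100 CPM in controls and 9340 and 9464 CPM after withdrawal. Both withdrawal libraries stood above both controls, whose spread was the wider one (SD 389 against 87.5 CPM, n = 2 each). The log2 fold change was 1.16 ± 0.09 (SE), with an edgeR adjusted p of 0.00370. HisATG, with only 13, 13, 21 and 13 reads in the 4 libraries, gave 0.81 ± 0.45 (SE) and an edgeR adjusted p of 0.347.

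AsnGTT was a minor tRNA in the Ion Proton libraries, with 86.6 and 80.1 CPM in controls and 149 and 162 CPM after withdrawal. Again the groups did not overlap. The log2 fold change was 1.10 ± 0.12 (SE), with an edgeR adjusted p of 0.00937.

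TyrGTA had 168 and 145 CPM in controls and 140 and 121 CPM after withdrawal, so that its CPM lay lower after withdrawal, though 145 and 140 nearly touched. The fit, which rescales libraries by TMM factors, gave a log2 fold change of -0.06 ± 0.13 (SE, edgeR adjusted p of 0.837), and the sign turned to 0.11 with factors from miRNAs alone.

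**Figure D1:**
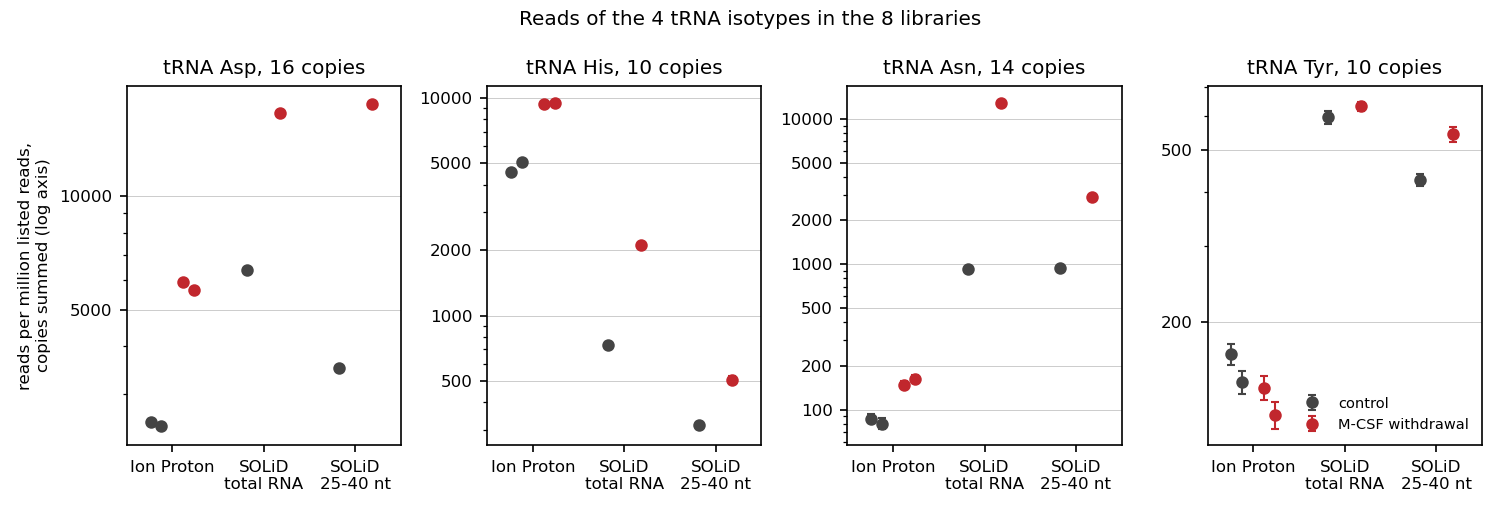
Reads per 1000000 listed reads (log axis) of each isotype, copies with the GUN anticodon summed, in the 8 libraries; each point is a library and bars are 95% Wilson intervals, which cover counting error only. In the Ion Proton run the withdrawal libraries stand above the controls for Asp (5912 and 5632 against 2529 and 2457), His and Asn, and below them for Tyr (140 and 121 against 168 and 145).

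The most-read copies gave a like picture for AspGTC, HisGTG and AsnGTT. For AspGTC it was chr10.tRNA866-AspGTC (chr10:91182097-91182168, minus strand, in no annotated gene), with 281 and 230 CPM in controls and 580 and 561 CPM after withdrawal. In a table keeping only the most-read copy of each anticodon, its log2 fold change was 1.3802 ± 0.12 (SE, edgeR adjusted p of 0.00642). With those copies 7.35% of 1659 features were called higher and 5.49% lower (122 and 91 features, or 119 and 9 with total counts and 120 and 8 with TMM factors over miRNAs).

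For HisGTG the most-read copy was chr3.tRNA751-HisGTG (chr3:96458070-96458141, minus strand), with 479 and 537 CPM in controls and 994 and 1009 CPM after withdrawal. Its log2 fold change in the table of most-read copies was 1.1996 ± 0.10 (SE, edgeR adjusted p of 0.00536). For AsnGTT it was chr2.tRNA1947-AsnGTT (chr2:18587044-18587117, minus strand), with 10.8 and 9.75 CPM in controls and 23.6 and 25.9 CPM after withdrawal. This copy rose by a log2 fold change of 1.49 ± 0.18 (SE, edgeR adjusted p of 0.0134), and the call was lost without M-CSF withdrawal 1 (0.0537) or without M-CSF withdrawal 2 (0.0510).

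For TyrGTA it was chr5.tRNA109-TyrGTA (chr5:30888083-30888171, plus strand, in no annotated gene), with 91.6 and 101 CPM in controls and 66.2 and 59.6 CPM after withdrawal. Both withdrawal libraries stood below both controls. In the table of most-read copies the log2 fold change was -0.39 ± 0.12 (SE, edgeR adjusted p of 0.150). The SOLiD pairs did not show this difference for the copy, which had 127 and 122 RPM in SOLiD total and 104 and 109 RPM in SOLiD small, log2 ratios of -0.06 and 0.07.

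Per kb of gene, the most-read copies of the Ion Proton controls had 6654 and 7454 CPM for HisGTG, 3899.9 and 3187 CPM for AspGTC, 1029 and 1131 CPM for TyrGTA and 146 and 132 CPM for AsnGTT. Each neighbouring pair in that order was separate in both controls, although the Tyr genes include their introns. This is an order of single copies, whose values are uncertain because copies can share reads. The 16 Asp and 14 Asn copies also outnumber the 10 places reported per Ion Proton read. The same 4 copies stood in another order in the SOLiD total control, with 9692 RPM per kb for AspGTC, 3355 for AsnGTT, 1423 for TyrGTA and 859 for HisGTG. Summed over the SOLiD libraries, other copies of 2 isotypes had the most reads, chr2.tRNA587-HisGTG with 1446 RPM per kb and chr3.tRNA28-TyrGTA with 1220.4 RPM per kb in that control, so that the order of HisGTG and TyrGTA there depended on the copy taken.

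Because all nuclear tRNAs together took a larger share of reads after withdrawal, the anticodons were also tested relative to nuclear tRNA reads. TyrGTA then fell and AspGTC rose, whereas the values of HisGTG and AsnGTT did not pass the test. The fall of TyrGTA is one of share, as its sum had a log2 fold change of -0.06 without this scaling. TyrGTA made up 0.0629% and 0.0544% of nuclear tRNA reads in the Ion Proton controls and 0.0298% and 0.0272% after withdrawal. Both withdrawal libraries stood well below both controls. The log2 fold change relative to nuclear tRNA reads was -1.04 ± 0.13 (SE, edgeR adjusted p of 0.00421), the 4th lowest among 51 anticodons. In that fit 2.29% of 1659 features were called higher and 29.8% lower, and among the 46 other anticodons 7 were called higher and 14 lower. Over the 6 alternatives TyrGTA ranged from -1.40 to -0.93, with edgeR adjusted p from 0.00122 to 0.0190.

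The share of AspGTC was 0.948% and 0.925% in controls and 1.25% and 1.26% after withdrawal. Its log2 fold change relative to nuclear tRNA reads was 0.43 ± 0.08 (SE, edgeR adjusted p of 0.0123). That call was lost without control 2 (0.0574) and with only the most-read copy of each anticodon (0.1004). The adjusted p over the 6 alternatives ran from 0.0262 to 0.1004. HisGTG took 1.70% and 1.92% in controls and 1.98% and 2.12% after withdrawal, a relative change of 0.18 ± 0.10 (SE, edgeR adjusted p of 0.229). AsnGTT took 0.0324% and 0.0301% in controls and 0.0315% and 0.0364% after withdrawal, where the groups overlapped (0.12 ± 0.13, SE, edgeR adjusted p of 0.551).

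All listed copies together took 2.75% and 2.93% of nuclear tRNA reads in controls and 3.30% and 3.44% after withdrawal. An exact permutation test (both tails) of these shares, and of those of AspGTC, HisGTG and TyrGTA, gave p = 0.333, the smallest p that 2 against 2 libraries allow. For AsnGTT the same exact permutation test gave p = 0.667. Adjustment could only raise these values.

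The Tyr share was also lower after withdrawal in the SOLiD pairs, though the Tyr sums of the runs rest on different copies. The copy chr5.tRNA109-TyrGTA had 711 of 1302 Tyr reads in Ion Proton control 1 and 731 of 3437 in the SOLiD total control. The Tyr share was 0.585% in the SOLiD total control and 0.150% after withdrawal, and 0.485% and 0.131% in the SOLiD small pair. None of the 95% Wilson intervals within a pair overlapped, for example 0.565% to 0.604% against 0.146% to 0.153% in SOLiD total. Those of AspGTC, HisGTG and AsnGTT did not overlap either, and these intervals cover counting error only. HisGTG was also lower in both pairs, going from 0.722% to 0.5003% in SOLiD total and from 0.356% to 0.122% in SOLiD small. AspGTC and AsnGTT had no common direction by this measure. AspGTC went from 6.25% to 3.93% in SOLiD total and from 3.98% to 4.25% in SOLiD small. AsnGTT went from 0.907% to 3.06% and from 1.08% to 0.698%. With 1 library per condition these pairs have no replicate check.

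**Figure D2:**
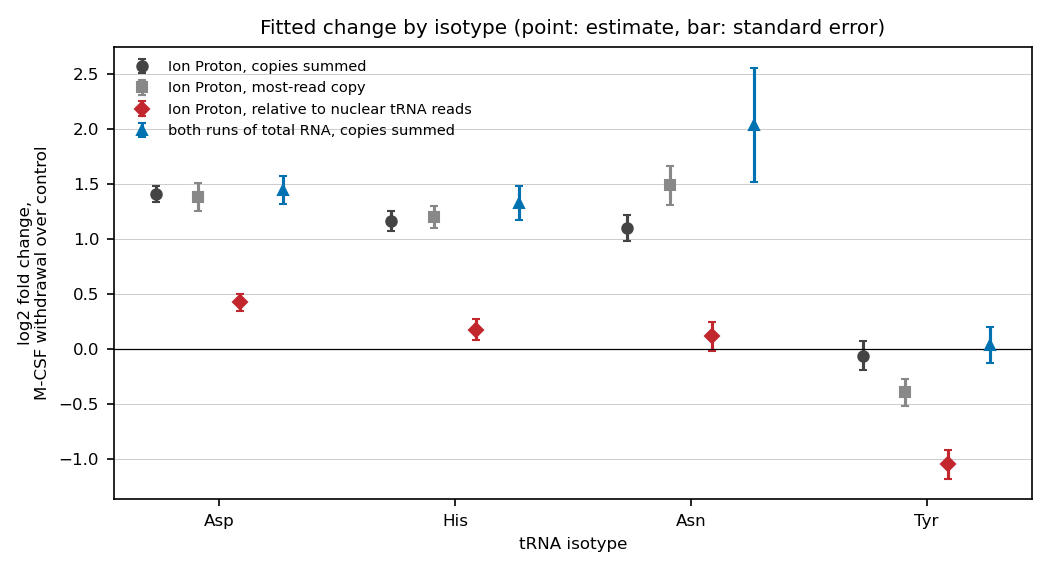
Log2 fold change of M-CSF withdrawal over control (points) with its standard error (bars) for each isotype with the GUN anticodon, in 3 Ion Proton fits and 1 fit of both runs of total RNA. Relative to nuclear tRNA reads Tyr lies at -1.04 and Asp at 0.43, while His and Asn lie within 2 standard errors of 0.

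**Figure D3:**
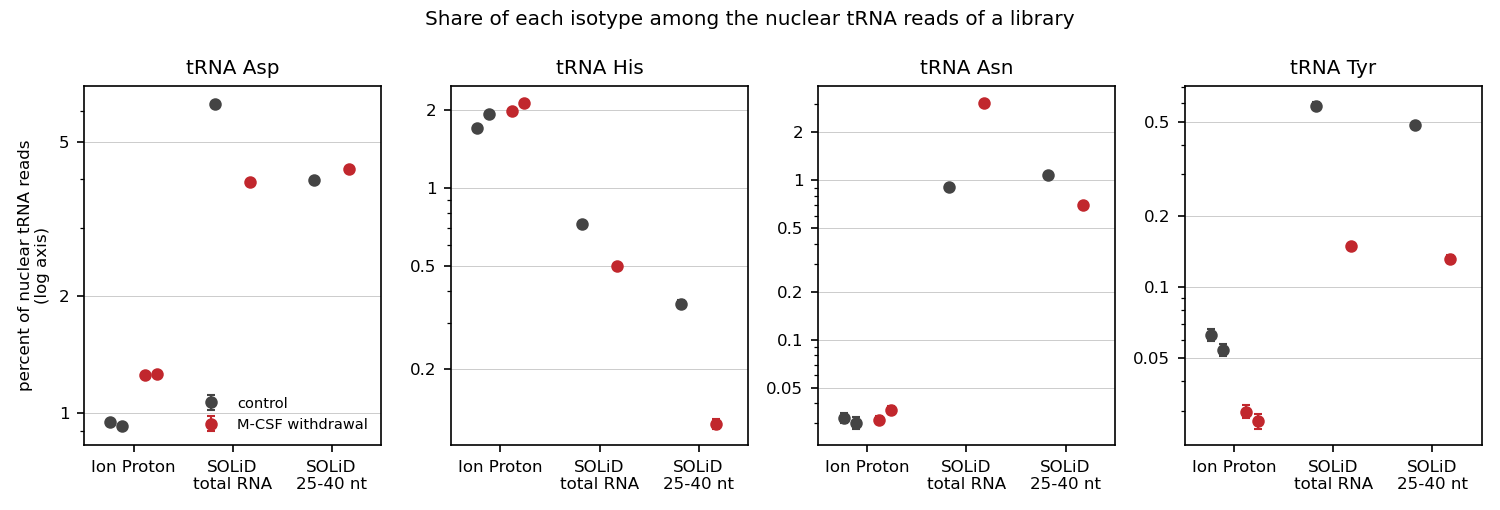
Percent of nuclear tRNA reads (log axis) of each isotype with the GUN anticodon in the 8 libraries; each point is a library and bars are 95% Wilson intervals. Tyr lies lower after withdrawal in all 3 kinds of library (0.0298% and 0.0272% against 0.0629% and 0.0544%, 0.150% against 0.585%, 0.131% against 0.485%), whereas Asp, His and Asn do not keep 1 direction.

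Among single copies of the Ion Proton run, 36 of the 50 tested were called higher and 1 lower by edgeR, where 15.7% of all 2029 features tested were called higher and 8.97% lower. With TMM factors over miRNAs the calls over all features were 413 and 80 in place of 318 and 182. Among 371 other nuclear tRNA features 180 were called higher and 12 lower. The median log2 fold change was 1.03 over the members, 0.71 over other nuclear tRNAs and 0.08 over all features. By isotype, the calls of a rise covered 16 of 16 Asp copies, 10 of 10 HisGTG copies, 10 of 13 Asn copies, 0 of 10 Tyr copies and not the HisATG gene. DESeq2 called 27 members higher and 1 lower, with 0 Tyr copies higher also at an unadjusted p of 0.05. Since copies can share reads, these counts are not counts of independent genes.

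The Asp copies rose by log2 fold changes of 1.21 to 2.06. The largest change was that of chr2.tRNA511-AspGTC (chr2:114103367-114103438, plus strand), which lies inside the splicing factor gene Aqr on the opposite strand and outside its exons. It was the least read of the Asp copies, with 20.0 and 14.5 CPM in controls and 71.9 and 67.1 CPM after withdrawal. The change was 2.06 ± 0.18 (SE, edgeR adjusted p of 0.00324). In SOLiD total this copy had 71.2 RPM in control cells and 717 RPM after withdrawal, and in SOLiD small 96.3 and 677 RPM, the largest ratios of any Asp copy in both pairs.

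The next largest was that of chr5.tRNA1610-AspGTC (chr5:100992874-100992945, minus strand, in no annotated gene). It had 104 CPM in both controls and 270.5 and 245 CPM after withdrawal, a change of 1.36 ± 0.08 (SE, edgeR adjusted p of 0.00166). At the other end stood chr1.tRNA1013-AspGTC (chr1:171037029-171037100, minus strand) at 1.21 ± 0.07 and chr10.tRNA866-AspGTC at 1.21 ± 0.12. Of the 16 Asp copies, 14 lay between 1.21 and 1.33.

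For HisGTG, chr3.tRNA293-HisGTG (chr3:96435972-96436043, plus strand, inside BC107364 on the opposite strand) changed least. It had 294 and 335 CPM in controls and 482 and 473 CPM after withdrawal, a change of 0.66 ± 0.10 (SE, edgeR adjusted p of 0.0135). The other 9 copies lay between 1.03 and 1.08, with chr2.tRNA1431-HisGTG at 1.03 ± 0.09 as the next smallest. The highest values were 1.03 ± 0.09 for chr3.tRNA295-HisGTG, whose sequence is printed above, and 1.08 ± 0.09 for chr3.tRNA749-HisGTG, inside the long non-coding RNA gene Gm10685.

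Of the 13 Asn copies tested, 9 had a mean of at least 10 CPM. Among these, chr2.tRNA1947-AsnGTT had the largest change per copy, 1.32 ± 0.15 (SE, edgeR adjusted p of 0.00709), followed by chr1.tRNA1014-AsnGTT, 8.12 and 7.38 CPM in controls and 13.6 and 15.4 CPM after withdrawal. The change of the latter was 0.95 ± 0.17 (SE, edgeR adjusted p of 0.0213). The smallest were chr3.tRNA294-AsnGTT at 0.80 ± 0.16 and chr3.tRNA289-AsnGTT at 0.82 ± 0.16. All 13 copies had both withdrawal libraries above both controls in CPM, as did 33.4% of all 2029 features tested, while 28% had both below.

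Only 2 Tyr copies had a mean of at least 10 CPM. One was chr5.tRNA109-TyrGTA, whose values are given above. Its change per copy was -0.56 ± 0.11 (SE, edgeR adjusted p of 0.0239), and it was the copy called lower. The call was lost without control 2 (0.0507), without M-CSF withdrawal 1 (0.0965) and without M-CSF withdrawal 2 (0.143), and the adjusted p ranged from 0.00576 to 0.235 over 11 alternatives. The other was chr3.tRNA28-TyrGTA (chr3:19628782-19628870, plus strand) with 12.1 and 7.52 CPM in controls and 11.5 and 9.58 CPM after withdrawal, which gave 0.15 ± 0.29 (SE, edgeR adjusted p of 0.751). The 9 Tyr copies other than chr5.tRNA109-TyrGTA had values of 0.09 to 0.48, and none was called.

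**Figure D4:**
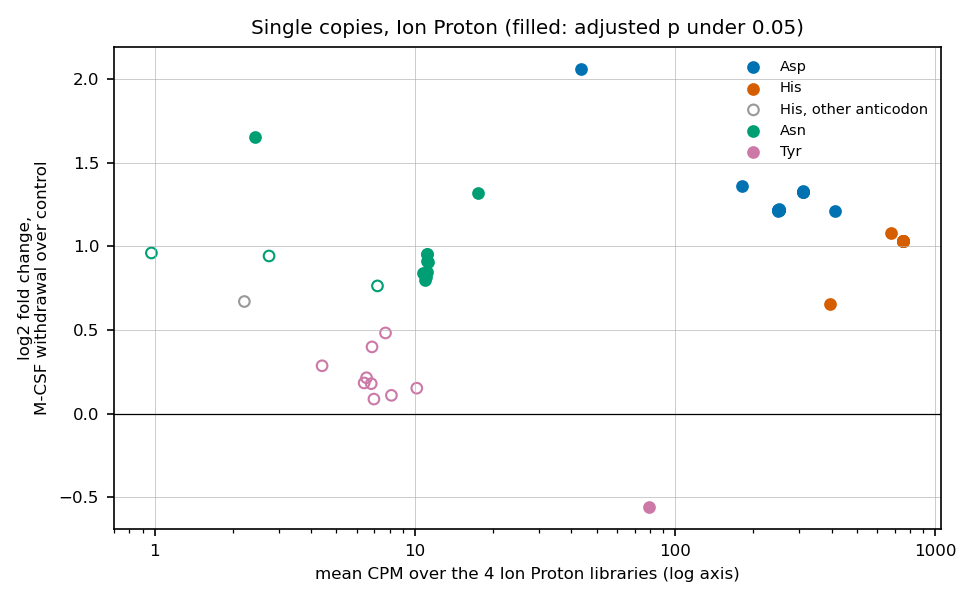
Log2 fold change of each of the 50 copies in the Ion Proton fit against its mean CPM (log axis); filled points had an edgeR adjusted p under 0.05. Asp and His copies lie between 0.66 and 2.06, Asn copies between 0.76 and 1.65, and the called Tyr copy at -0.56 lies apart from the other Tyr copies.

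On chromosome 3, 6 His and 7 Asn copies are interspersed in 1 cluster. Several of them had Ion Proton counts within 5% of those of copies on other chromosomes, as did the 3 Asp copies on chromosome 13. Such values may stem from shared reads, so they cannot be assigned to a place in the genome. In the Ion Proton run their ranges overlapped, with 0.66 to 1.08 for the 6 His copies and 0.76 to 0.94 for the 6 Asn copies tested. In SOLiD total the log2 ratio was 1.59 to 2.07 for the His copies and 0.86 to 3.81 for the 7 Asn copies, of which chr3.tRNA285-AsnGTT at under 1 RPM was the low one. The 6 Tyr copies clustered on chromosome 13 had 0.09 to 0.48 in the Ion Proton run, and the 3 Asp copies on the same chromosome had 1.22 to 1.32.

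The SOLiD pairs gave more uneven values, as log2 ratios of RPM plus 1. No test was made on them, since each condition had 1 library. Of the 51 copies, 41 had a log2 ratio of at least 1 in SOLiD total and 35 in SOLiD small, where 24.9% of 2513 features and 32.1% of 2214 features did so. For other nuclear tRNAs it was 257 of 369 and 237 of 370. Copies had equal reads here as well. For example, chr1.tRNA1002-AspGTC and chr1.tRNA1005-AspGTC each had 2384 and 11370 reads in SOLiD total. These counts are therefore not counts of independent genes either.

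AsnGTT had the largest ratio, 924 RPM in the SOLiD total control and 12934 RPM after withdrawal, which is 14.0-fold and a log2 ratio of 3.81 (95% counting interval 3.77 to 3.84). In SOLiD small it went from 948 to 2889 RPM, a log2 ratio of 1.61. Its most-read copy, chr2.tRNA1947-AsnGTT, had 248 and 4485 RPM in SOLiD total and 250.1 and 1066 RPM in SOLiD small.

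AspGTC went from 6366 to 16593 RPM in SOLiD total and from 3511 to 17588 RPM in SOLiD small, log2 ratios of 1.382 and 2.32. HisGTG went from 735 to 2112 RPM, a log2 ratio of 1.52, in SOLiD total. In SOLiD small it went from 314 to 506 RPM, a log2 ratio of 0.69 whose sign turned to -0.17 when the pair was scaled by TMM factors. AspGTC had its larger ratio in the size selected pair, and HisGTG and AsnGTT in total RNA.

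TyrGTA had 595 and 631 RPM in SOLiD total and 427 and 544 RPM in SOLiD small, log2 ratios of 0.08 and 0.35. With TMM factors of the pair both signs turned, to -0.10 and -0.51. The single HisATG gene had 20.1 and 141 RPM in SOLiD total and 12.1 and 27.5 RPM in SOLiD small.

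The 4 isotypes also divided the reads differently in the 2 runs. A sum over copies can count a read several times, so this division may depend on the number of like copies. In the Ion Proton controls HisGTG took 62.0% and 65.5% of the reads of all listed copies, AspGTC 34.5% and 31.6%, TyrGTA 2.29% and 1.86% and AsnGTT 1.18% and 1.03%. In the SOLiD total control AspGTC took 73.7%, AsnGTT 10.7%, HisGTG 8.51% and TyrGTA 6.89%. After withdrawal AsnGTT rose to 39.9% in SOLiD total, and in the Ion Proton libraries it stayed at 0.956% and 1.06%. The runs differed in kit, platform, mapping and RNA input, and these cannot be told apart. The methods do not say whether the runs shared cultures.

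The 6 libraries made from total RNA in both runs, 3 per condition, were fitted together with limma on log2 of CPM or RPM plus 1, with treatment and run as terms. AspGTC rose by 1.44 ± 0.13 (SE, limma adjusted p of 0.00117) and HisGTG by 1.33 ± 0.15 (0.00286). AsnGTT had 2.04 ± 0.52 (limma adjusted p of 0.0600), HisATG 1.32 ± 0.49 (0.135) and TyrGTA 0.03 ± 0.16 (0.893), whose sign turned with 2 other scalings. Among 1336 features 6.36% were called higher and 1.05% lower (85 and 14 features, or 83 and 92 with total scaling, 85 and 115 with median centring and 128 and 2 with TMM factors over miRNAs), and among the 46 other anticodons 20 were called higher. The AsnGTT sum passed the threshold with voom (limma adjusted p of 0.0353). It also did so without the SOLiD control and without the SOLiD withdrawal library. In those fits the run term takes up the SOLiD library that is left. Their treatment change therefore rests on the Ion Proton libraries alone, and was 1.11 without the SOLiD control. Over 16 alternatives the largest value of AsnGTT was a limma adjusted p of 0.145.

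A treatment by run term, chosen after seeing the data, gave the difference between the 2 runs. Each SOLiD condition had 1 library, so the SE and p of this term hold the spread of the Ion Proton libraries only. The log2 change of AsnGTT was larger in SOLiD total by 2.77 ± 0.18 (SE, limma adjusted p of 0.000968) and that of HisATG by 2.27 ± 0.51 (0.0485). For AspGTC the difference was 0.03 ± 0.13 (0.923), for HisGTG 0.41 ± 0.15 (0.157) and for TyrGTA 0.19 ± 0.23 (0.624). Among 1336 features 6.74% had a larger change in SOLiD total and 3.82% a smaller one, and among the 46 other nuclear tRNA anticodons 25 had a larger and 1 a smaller one. A difference between runs was therefore not particular to AsnGTT.

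Copy by copy, 29 of 50 members were called higher and 0 lower in the limma fit of both runs, where 13.3% of 1701 features were called higher and 6.76% lower (227 and 115 features, or 178 and 230 with median centring and 279 and 3 with TMM factors over miRNAs). The calls covered 16 of 16 Asp, 10 of 10 HisGTG and 3 of 13 Asn copies. At an unadjusted p of 0.05 there were 40 higher and 1 lower, and voom with adjustment called 40 higher and 0 lower. The count was 4 without Ion Proton control 1, 9 without control 2 and 15 without M-CSF withdrawal 1.

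**Figure D5:**
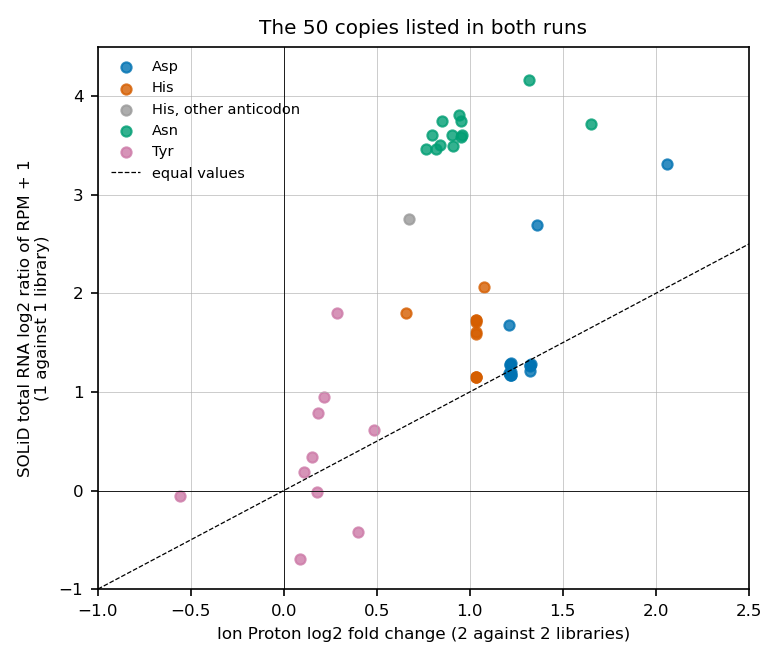
Log2 ratio of RPM plus 1 in SOLiD total (1 against 1 library) against the log2 fold change of the Ion Proton fit (2 against 2) for the 50 copies listed in both runs; the dashed line marks equal values. Asn copies lie far above the line, at 3.46 to 4.17 on the SOLiD axis, most Asp copies lie near it, and Tyr copies lie between -0.70 and 1.80 on the SOLiD axis.

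The mitochondrial tRNAs for the same 4 amino acids carry G as first anticodon base as well and are encoded by the mitochondrial genome. Their genes, on GRCm38 with the anticodon in capitals, are mt-Td for Asp (chrM:6942-7011, plus strand), mt-Th for His (chrM:11546-11612, plus), mt-Tn for Asn (chrM:5089-5159, minus) and mt-Ty for Tyr (chrM:5260-5326, minus), and show the anticodon of all 4 isotypes.
mt-Td: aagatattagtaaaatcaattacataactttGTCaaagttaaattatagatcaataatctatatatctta
mt-Th: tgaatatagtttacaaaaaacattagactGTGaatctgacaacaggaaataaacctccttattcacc
mt-Tn: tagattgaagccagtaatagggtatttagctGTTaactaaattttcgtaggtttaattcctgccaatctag
mt-Ty: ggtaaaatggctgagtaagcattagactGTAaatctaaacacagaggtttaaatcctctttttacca
In the Ion Proton run edgeR called 3 of the 4 higher and 0 lower, where 15.7% of 2029 features were called higher and 8.97% lower. In the limma fit of both runs it was also 3 of 4, but with mt-Td (2.57, adjusted p of 0.0492) in place of mt-Ty (0.08, adjusted p of 0.873), where 13.3% of 1701 features were called higher and 6.76% lower. The largest change was that of mt-Tn, with 1.42 and 5.15 CPM in controls and 136 and 124 CPM after withdrawal (log2 fold change 5.38 ± 0.43, SE, edgeR adjusted p of 0.00273). It was followed by mt-Th, with 129 and 94.6 CPM in controls and 794 and 790.5 CPM after withdrawal (2.88 ± 0.17, edgeR adjusted p of 0.00166). The smallest called change was that of mt-Ty, 34.9 and 30.5 CPM in controls and 47.7 and 47.1 CPM after withdrawal (0.59 ± 0.12, edgeR adjusted p of 0.0267). In SOLiD total mt-Ty went the other way, from 419.8 to 282 RPM. The Asp one, mt-Td, had 0 to 4.60 CPM and did not pass (2.08 ± 1.24, edgeR adjusted p of 0.320).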

How the data were processed

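Small RNA reads of 8 mouse BMDM libraries were used. In the Ion Proton data, adapters had been cut with cutadapt 1.2.1, and the authors discarded reads under 15 bases, mapped to mm10 with bowtie2 2.2.4 (up to 10 places per read) and deposited raw read counts per feature. For the SOLiD run the authors mapped to mm10 with LifeScope 2.5.1 and deposited reads per 1000000 listed reads (RPM). All SOLiD values were whole multiples of 1 read, to within 0.01 read, so that reads were recovered. Features came from miRBase 21, UCSC tRNAs and Ensembl 75. The methods give 1.5 µg RNA and reads of 35 bases for SOLiD, the labels 2 µg and 50 bases, and the Ion Proton labels name small RNA where the methods give total RNA.

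The tests on counts used edgeR 4.0.16 under R 4.3.3 (quasi-likelihood, TMM, summed count of at least 5, threshold 0.05). The SE given with edgeR values was worked back from the test, as the absolute log2 fold change over the square root of its F statistic. Both runs were fitted with limma 3.58.1 on log2 values with a pseudocount of 1, TMM within each run and at least 5 reads in each. DESeq2 1.42.0, other scalings, filters and pseudocounts, a replicate block and leaving out each library were alternatives. Relative fits took nuclear tRNA reads as library size. Fits were also run on simulated data, with features drawn independently and changes set in both directions. The simulation held no shared reads and no shift of nuclear tRNAs as a class, so it cannot show how the fits behave there. Intervals are 95% Wilson or counting intervals and cover counting error only. Named copies were the most-read copy of each anticodon in the Ion Proton run, the 2 largest and 2 smallest changes among copies averaging at least 10 CPM, and copies called against their sum. The members, lists and tests were chosen with earlier results of these data known. Ion Proton replicates differed by 26.6 and 25.0 times the counting variance and were not duplicates. Ion Proton libraries of the same number did not deviate together (correlation of deviations -0.00177 across 852 features), which cannot exclude that they were paired. Sequences were read from RefSeq windows and GENCODE release M21 (GRCm38), and no Tyr gene was printed. Python 3.11.15, pandas 2.3.3, numpy 2.4.6, scipy 1.17.1 and matplotlib 3.10.9 were used.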

Additional observations from a re-analysis of the deposited data

Results flagged for a closer look

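The response of AsnGTT to M-CSF withdrawal differed between the SOLiD total pair and the Ion Proton run by 2.77 on the log2 scale (limma, treatment by run term, adjusted p of 0.000968). Both runs had the same direction, with 924 to 12934 RPM in SOLiD and means of 83.3 ± 4.61 and 155 ± 9.77 CPM (SD, n = 2) in the Ion Proton run.

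The response of HisATG differed between the same runs by 2.27 (limma adjusted p of 0.0485). This gene had 13 to 21 reads in each Ion Proton library and 116 and 1720 in the SOLiD total pair, so that the Ion Proton side rests on few reads. The SOLiD side of both differences is 1 library per condition, so that their adjusted p holds no spread between SOLiD libraries. Among the 46 other nuclear tRNA anticodons 25 also had a larger change in SOLiD total.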

How the results depend on the processing

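In the Ion Proton fit the sums of AspGTC, HisGTG and AsnGTT were called higher in 10 of 11 alternatives each. The replicate block, on numbers for which a pairing of libraries is unknown, left them at 1.41, 1.16 and 1.10 with edgeR adjusted p of 0.0693, 0.0898 and 0.106, and the most-read copies at 1.39, 1.202 and 1.49 (0.0918, 0.0883 and 0.114). It left 0 copies called lower, as did TMM factors over miRNAs, while median centring gave 1 copy called lower in both runs. The block kept TyrGTA relative to nuclear tRNA reads past the threshold. The cause of these changes was not tested.

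TyrGTA sums changed sign to 0.11 with TMM over miRNAs in the Ion Proton run, and in both runs to -0.14 with total scaling and -0.18 with median centring. HisATG in both runs was called with voom on recovered reads (2.25). AsnGTT in both runs was 2.54 with voom. AspGTC relative to nuclear tRNA reads was 0.37 with the most-read copies.

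Without each library in turn, the log2 change of TyrGTA ran from -0.15 to 0.071 (Ion Proton run) and from -0.038 to 0.12 (both runs). That of the AsnGTT most-read copy ran from 1.42 to 1.56, and that of AsnGTT in both runs from 1.11 to 2.34. Fits of both runs without a SOLiD library rest on the Ion Proton libraries alone, as the run term takes up the other SOLiD library. Such fits gave the 1.11 of AsnGTT and the highest count of copies in both runs below. AspGTC and HisATG relative to nuclear tRNA reads ran from 0.41 to 0.44 and from -0.44 to 0.062, the latter without M-CSF withdrawal 2. Copies called lower numbered 0 to 1 in either fit, and copies called higher 27 to 29 in the Ion Proton run and 4 to 36 in both.

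In SOLiD total, TMM factors of the pair gave 1.19, 1.33, 3.62 and -0.10 for AspGTC, HisGTG, AsnGTT and TyrGTA, and the copies most read in the SOLiD libraries (chr2.tRNA587 for HisGTG, chr3.tRNA28 for TyrGTA) 1.68, 1.16, 4.17 and 0.34. The copies most read in the Ion Proton run, an alternative chosen after seeing the data, gave 1.73 for HisGTG and -0.057 for TyrGTA, with the same copies for the others. In SOLiD small the factors gave 1.46, -0.17, 0.74 and -0.51, and the copies most read in the SOLiD libraries gave 2.58, 0.52 and 2.09 for the first 3. The copies of the Ion Proton run gave 0.92 for HisGTG and 0.067 for TyrGTA. As shares among most-read copies, the Ion Proton differences were 0.166, 0.00905, -0.133 and 0.202 percentage points for AspGTC, AsnGTT, TyrGTA and all isotypes.

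Other scalings moved the median of all features in the Ion Proton sums by -0.20 (total counts) and 0.17 (TMM over miRNAs), and in both runs by -0.12 (total), -0.15 (median centring) and 0.23 (TMM over miRNAs). Over all features, the block called 7 sums higher and 0 lower in the Ion Proton run (124 and 93 without it), 235 and 126 copies (318 and 182), and in both runs 63 and 3 sums (85 and 14) and 127 and 11 copies (227 and 115). DESeq2 called 130 and 140 Ion Proton sums, and voom 138 and 65 sums in both runs. Without 1 library these counts ran from 82 to 107 and 11 to 68 (Ion Proton sums), 199 to 280 and 100 to 248 (Ion Proton copies), 38 to 141 and 1 to 108 (sums, both runs) and 61 to 347 and 4 to 230 (copies, both runs). For both runs the upper ends come from fits without a SOLiD library, whose treatment change rests on the Ion Proton libraries alone. Each SOLiD condition rests on 1 library, HisATG on few Ion Proton reads, and values of single copies on shared reads.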
